A study of Mus musculus with 6 samples.

Results

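Of the 1077 mature microRNAs (miRNAs) counted in mouse pancreas with pancreatitis, 6 come from the miR-183, miR-96 and miR-182 cluster. They are the 5p and 3p arms of its 3 hairpins, chosen by name and not by level. All 6 were in the count table, and all 6 passed the filter on low counts. There were 3 libraries from control mice with pancreatitis and 3 from mice with pancreatitis and HTG, the labels' short name for an excess of triglycerides in the blood. An excess of blood triglycerides is itself a cause of acute pancreatitis in people. Both groups carried pancreatitis, so neither gives the level of healthy pancreas. The sources used here do not give the strain, age or sex, how pancreatitis or HTG was brought about, or whether animals were pooled. P-values therefore measure the spread between libraries, which may be partly technical.

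A miRNA is cut from the stem of a hairpin, and 1 arm, the guide, is mostly kept to repress messenger RNAs that match its seed, bases 2 to 8. The 3 hairpins are made together from 1 long primary transcript. The cluster is best known from sensory organs such as the retina and the inner ear, where a change in the seed of miR-96 causes hearing loss in mice and in humans, and it is also made in epithelial and endocrine cells. In mouse helper T cells miR-182 is induced on activation and represses Foxo1, a transcription factor that also acts in beta cells and in lipid and glucose metabolism.

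On the minus strand of chromosome 6 in build GRCm38, Mir183 lies at chr6:30169668-30169737, Mir96 at chr6:30169446-30169551 and Mir182 at chr6:30165918-30165992. Only 116 bases separate Mir183 from Mir96, and 3453 bases separate Mir96 from Mir182. The whole cluster spans 3820 bases. RefSeq places it inside Mirc35hg, a long noncoding RNA gene on the same strand at chr6:30158640-30174125, whose start lies 4388 bases ahead of Mir183. In GENCODE M21 the protein-coding genes on either side are Nrf1, which ends at 30153458, and Ube2h, which begins at 30211289.

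**Figure D1:**
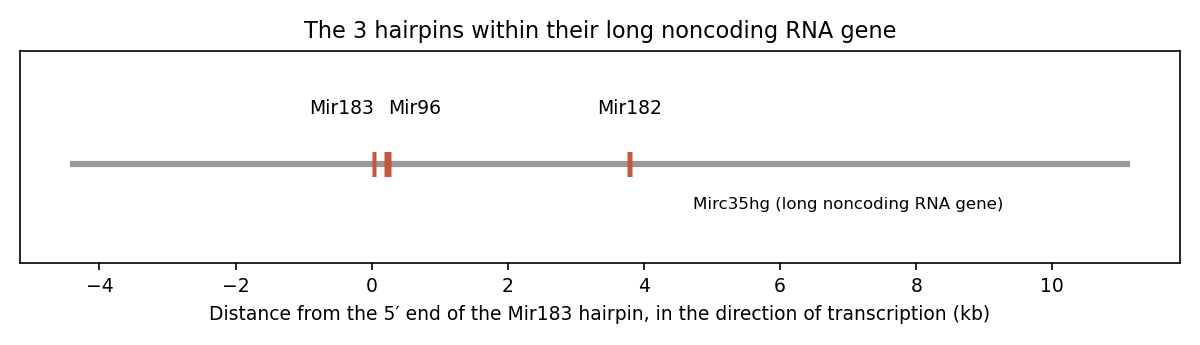
Positions of the 3 hairpins (red) within the long noncoding RNA gene Mirc35hg (grey); the horizontal axis is the distance in kilobases from the 5′ end of Mir183 along the direction of transcription. Mir183 and Mir96 stand 116 bases apart, and Mir182 lies 3453 bases beyond Mir96.

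The RefSeq hairpins (GRCm38.p6) are shown because both arms of each were counted; capitals mark the mature 5p and 3p arms.
Mir183: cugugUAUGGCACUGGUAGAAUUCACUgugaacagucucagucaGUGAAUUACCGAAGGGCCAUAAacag
Mir96: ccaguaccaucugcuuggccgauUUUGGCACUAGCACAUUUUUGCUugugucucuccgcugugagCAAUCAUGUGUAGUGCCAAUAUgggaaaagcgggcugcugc
Mir182: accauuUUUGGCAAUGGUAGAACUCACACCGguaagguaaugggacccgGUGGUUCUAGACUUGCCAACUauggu

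The 6 mature sequences follow from the same table, which matched all 6 names, with the seed in capitals, because the seed sets which messenger RNAs an arm can match.
mmu-miR-182-5p: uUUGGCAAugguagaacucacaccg
mmu-miR-96-5p: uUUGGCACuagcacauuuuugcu
mmu-miR-183-5p: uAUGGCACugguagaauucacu
mmu-miR-182-3p: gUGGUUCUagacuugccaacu
mmu-miR-96-3p: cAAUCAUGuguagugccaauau
mmu-miR-183-3p: gUGAAUUAccgaagggccauaa

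Each 5p arm begins with U, and the seeds are near copies of each other. Counted from 1 at the 5′ end, the seeds of miR-96-5p and miR-182-5p differ by C8A alone, so the 6 bases UUGGCA at positions 2 to 7 are shared. Between miR-183-5p and miR-96-5p the seeds differ by A2U, and between miR-183-5p and miR-182-5p by A2U and C8A. Over the whole length, miR-183-5p and miR-182-5p are the closest pair, with 18 of 22 compared positions identical, against 13 of 22 for miR-183-5p with miR-96-5p and 12 of 23 for miR-96-5p with miR-182-5p. The 7-base match to the seed is GUGCCAU for miR-183-5p, GUGCCAA for miR-96-5p and UUGCCAA for miR-182-5p. Among mouse miRNAs of the reference, miR-1271-5p has the seed of miR-96-5p; it was not analysed here. The 3p arms of miR-96 and miR-182 hold the full complement of their own 5p seed from position 13, and that of miR-183 does not.

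Library totals ran from 6514498 to 19773579 counts, and 488 miRNAs were tested between the groups with edgeR's quasi-likelihood test. Levels are CPM, counts scaled to library size, after scaling with the trimmed mean of M-values (TMM). A read covers a whole miRNA, so there is no length term, but adapters join to some sequences better than to others, and levels of different miRNAs compare only roughly. Of the 8 markers of acinar cells, the enzyme-making bulk of the pancreas, all were in the table; their summed level lay between 328488 and 448026 CPM in the controls and between 327252 and 543048 CPM in HTG, and miR-216c-5p was the single one at 0 in any library. The libraries numbered 1 of both groups stood apart in miR-150-5p, a miRNA of lymphocytes, which was at 798, 66.2 and 103 CPM in controls 1, 2 and 3. In HTG 1, 2 and 3 it stood at 1726, 46.7 and 46.2 CPM, so results are also given without both libraries numbered 1. The sum of the 10 leukocyte markers was highest in HTG 1 (7079 CPM) but did not set control 1 apart. Control 1 held 3950 CPM, between 3233 CPM in control 3 and 5276 CPM in control 2. Another of these markers, miR-223-3p, was lowest of all libraries in control 1 (663 CPM).

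Most reads of the cluster were miR-182-5p. This arm took 65.97% to 71.3% of the cluster's counts in each library, miR-183-5p took 22.5% to 27.1% and miR-96-5p 4.54% to 7.21%. By mean level over all libraries they were 28th, 51st and 86th of the 1077 miRNAs. The lowest library of miR-182-5p (3287 CPM) was above the highest of miR-183-5p (2276 CPM), whose lowest (1324 CPM) was above the highest of miR-96-5p (595 CPM). The 3p arms were rare. For miR-183-3p the range was 6.84 to 18.5 CPM, above the 2.84 to 4.56 CPM of miR-96-3p, while miR-182-3p, at 0.860 to 4.71 CPM, overlapped miR-96-3p. All arms together held 0.592% to 0.911% of a library's counts.

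**Figure D2:**
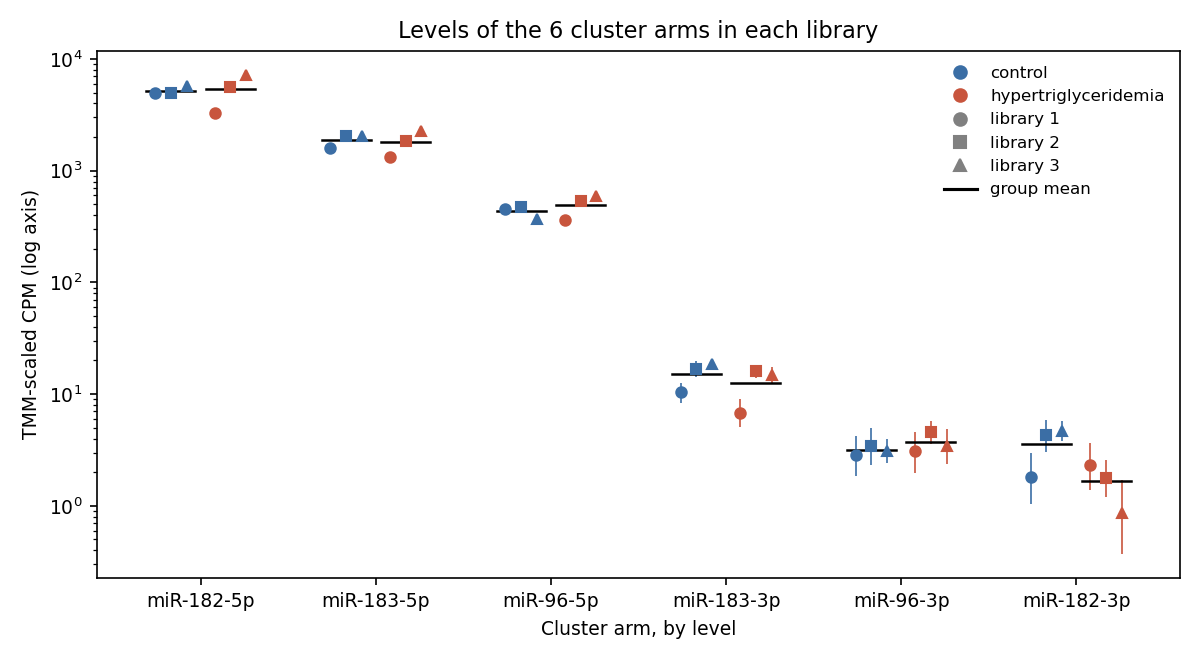
Level of each cluster arm (TMM-scaled CPM, log axis) in the 3 control (blue) and 3 HTG (red) libraries; marker shapes give the library number, thin bars the exact 95% Poisson interval of the count and black lines the group mean. The 5p arms lie between 359 and 7181 CPM and the 3p arms between 0.860 and 18.5 CPM, and the groups overlap for each arm.

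None of the 6 arms passed the test between HTG and control (adjusted p = 0.996 for each, edgeR). The background was the same: edgeR called 0% of the 488 tested miRNAs at an adjusted p under 0.05, and 2.46% at an unadjusted p under 0.05, which no cluster arm reached. DESeq2, limma-voom and limma on log2(TPM + 1) called 0 miRNAs as well, with 19, 17 and 12 at an unadjusted p under 0.05. The groups overlapped for each of the 6 arms, where 7.99% of all tested miRNAs had groups that did not overlap. Of the arms, 3 had a fitted change above 0 and 3 below, with a median log2 fold change of -0.01, and the median over all tested miRNAs was -0.01.

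The most abundant guide, miR-182-5p, a repressor of Foxo1, stood at 4962, 4962 and 5690 CPM in controls 1, 2 and 3. HTG libraries 1, 2 and 3 held 3287, 5583 and 7181 CPM. The HTG libraries thus lay on both sides of the control range, with the lowest and the highest of all 6 values. Group means were 5205 ± 420.4 and 5350.5 ± 1958 CPM (SD, n = 3 each), with a log2 fold change of 0.04 ± 0.27 (SE). Its 95% confidence interval allows a level between 0.664 and 1.59 times that of control. Counting error was small beside the differences between libraries: in HTG 1 the exact Poisson interval was 3246 to 3327 CPM, an interval that covers counting error only, since PCR copies are not separate molecules. The sign of this small change turned with library-size scaling (-0.059) and without HTG 3 (-0.23, adjusted p = 0.997 in edgeR), and without both libraries numbered 1 the value was 0.36 (unadjusted p = 0.0716, adjusted p = 0.374, edgeR).

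For miR-183-5p, a guide whose reported targets in human tumour cells include the transcription factor EGR1, the controls held 1583, 2033 and 2053 CPM. The HTG values were 1324, 1832 and 2276 CPM, again with the lowest and the highest of all after TMM scaling. As shares of all counts, control 1 was the lowest (0.155%) and control 3 the highest (0.227%). The mean was 1889.7 ± 266 in the controls and 1811 ± 477 CPM in HTG (SD, n = 3 each), the log2 fold change was -0.06 ± 0.23 (SE), and the 95% interval runs from 0.664 to 1.38 times control. The direction rested on HTG 1: without that library the log2 fold change was 0.16 (unadjusted p = 0.378 and adjusted p = 0.773, edgeR), and without both libraries numbered 1 it was 0.10 (adjusted p = 0.830, edgeR).

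The least abundant guide was miR-96-5p, which shares the UUGGCA hexamer with miR-182-5p. The controls held 459, 471 and 369 CPM of it and the HTG libraries 359, 537 and 595 CPM. HTG 2 and 3 lay above all controls and HTG 1 below them. As a share of all counts, HTG 1 (0.0427%) was above control 3 (0.0409%). The group means were 433 ± 55.5 for control and 497 ± 123 CPM for HTG (SD, n = 3 each), and the log2 fold change was 0.20 ± 0.22 (SE), with an interval of 0.798 to 1.65 times control. Without both libraries numbered 1 it was 0.52, at an unadjusted p of 0.0244 and an adjusted p of 0.277 (edgeR), and without HTG 1 alone 0.42 (unadjusted p = 0.0389, adjusted p = 0.514, edgeR). Unadjusted p-values under 0.05 were more common in these settings, with 70 of 509 and 45 of 500 tested miRNAs (edgeR). The log2 fold change of miR-96-5p was smaller, at 0.092, without control 3 (unadjusted p = 0.733, adjusted p = 0.998, edgeR) and at 0.045 without HTG 3 (unadjusted p = 0.862, adjusted p = 0.997, edgeR).

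The reads of miR-182-5p and miR-96-5p, which share the UUGGCA hexamer, were also summed; miR-1271-5p, which has it too, is not in this sum. The sum averaged 5638 ± 365 CPM over the controls and 5848 ± 2079 CPM over the HTG libraries (SD, n = 3 each). Of the summed reads, 90.2% to 93.9% were miR-182-5p in the 6 libraries, so its level followed that arm.

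Among the 3p arms, usually the discarded strands, the largest fitted difference of the cluster was that of miR-182-3p. Its counts were 16, 37 and 103 in controls 1, 2 and 3, or 1.82, 4.27 and 4.71 CPM, and 18, 29 and 8 in the HTG libraries, or 2.32, 1.79 and 0.860 CPM. Controls 2 and 3 were above all HTG libraries, and control 1 lay among them. The log2 fold change was -1.13 ± 0.52 (SE), with a 95% interval from -2.34 to 0.08 (unadjusted p = 0.0633 and adjusted p = 0.996, edgeR). The value in HTG 3 rests on 8 reads, for which the exact Poisson interval is 0.371 to 1.69 CPM. Without both libraries numbered 1 the log2 fold change was -1.62 (unadjusted p = 0.0134, adjusted p = 0.229, edgeR), and without control 1 alone -1.38 (unadjusted p = 0.0280, adjusted p = 0.555, edgeR). In these settings 70 of 509 and 37 of 505 tested miRNAs were at an unadjusted p under 0.05 (edgeR). The log2 fold change of miR-182-3p was nearer to 0 without HTG 3, at -0.83 (unadjusted p = 0.177, adjusted p = 0.997, edgeR), and without control 3, at -0.89 (unadjusted p = 0.194, adjusted p = 0.998, edgeR).

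The other passenger strands were less spread. In control, miR-183-3p was at 10.3, 16.95 and 18.5 CPM, and in HTG at 6.84, 15.96 and 14.9 CPM. In both groups the library numbered 1 was the lowest, and the log2 fold change was -0.27 ± 0.39 (SE); without HTG 1 it was 0.052 (adjusted p = 0.960, edgeR), and without both libraries numbered 1 it was -0.10 (adjusted p = 0.871, edgeR). For miR-96-3p, with 24 to 74 reads per library, the controls held 2.84, 3.46 and 3.11 CPM and the HTG libraries 3.10, 4.56 and 3.44 CPM, a log2 fold change of 0.25 ± 0.32 (SE), or 0.39 without both libraries numbered 1 (adjusted p = 0.676, edgeR) and 0.040 without HTG 2 (unadjusted p = 0.925, edgeR).

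**Figure D3:**
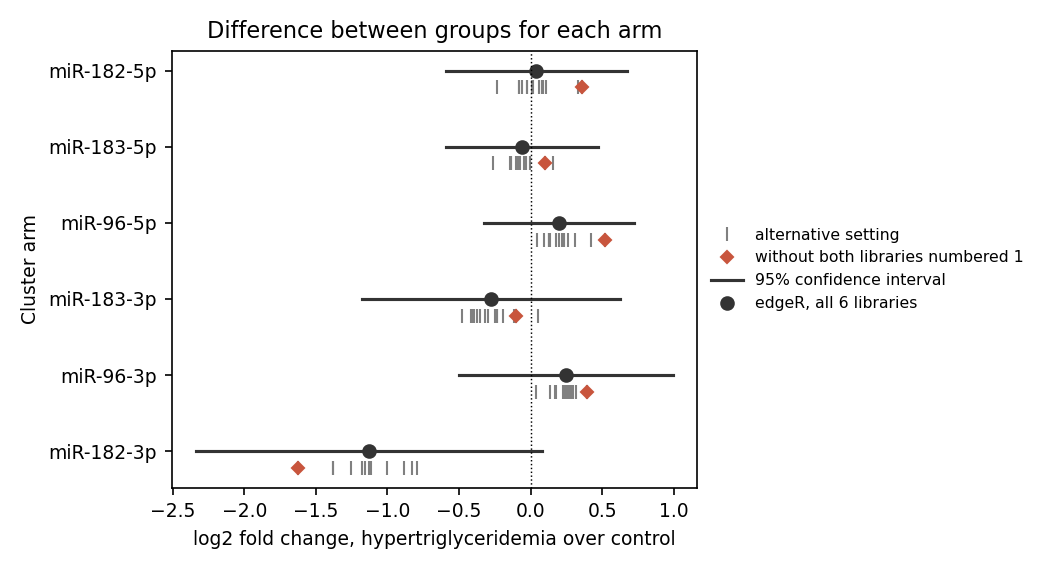
Log2 fold change of HTG over control for each arm, from edgeR with all 6 libraries (black points, with 95% confidence intervals), beneath which grey ticks give each alternative setting and red diamonds the value without both libraries numbered 1. Every interval includes 0; miR-182-3p, at -1.13, lies farthest from it.

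By reads, the 5p arm was by far the larger product of each hairpin. In the 6 libraries there were 111 to 193 reads of miR-183-5p per read of miR-183-3p and 116 to 173 of miR-96-5p per read of miR-96-3p. For miR-182 the ratio ran from 1163 to 8349. Among 235 hairpins with both arms in the table and at least 100 reads, miR-182 was 15th by the share of its major arm (99.9%), miR-96 57th (99.2%) and miR-183 59th (99.2%), and the median hairpin had 96.4%. The ratios of miR-182 were 2729, 1163 and 1209 in controls 1, 2 and 3 and 1414, 3123 and 8349 in HTG. These groups overlap: control 1 lies above HTG 1. On the log2 scale, with 0.5 added to each count, the mean ratio was 10.59 ± 0.68 in control and 11.65 ± 1.26 in HTG (SD, n = 3 each). Its difference of 1.06 had a two-sided exact permutation p of 0.2 (0.875 adjusted over 7 comparisons). With 3 against 3 libraries this test cannot go below 0.1. The size of the difference rested on single libraries: it was 0.42 without HTG 3, where the 3p arm has 8 reads, 1.67 without HTG 1 and 2.06 without both libraries numbered 1. The same ratio differed by 0.24 for miR-183 (exact permutation p = 0.5, adjusted 0.875; 0.060 without HTG 1, 0.43 without HTG 2, 0.37 without control 1 and 0.15 without control 3) and by -0.05 for miR-96 (exact permutation p = 0.8, adjusted 0.9).

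**Figure D4:**
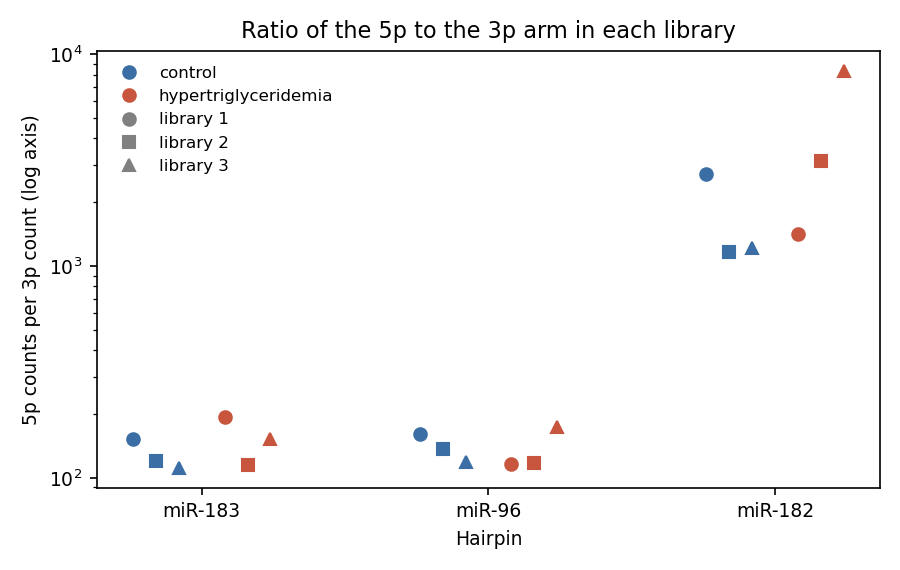
Reads of the 5p arm per read of the 3p arm (log axis) for each hairpin in the 3 control (blue) and 3 HTG (red) libraries, with marker shapes for the library number. The ratios of miR-183 and miR-96 lie between 111 and 193, and those of miR-182 between 1163 and 8349, with the highest in HTG 3.

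Ratios between guides are taken within a library and do not depend on scaling. There were 2.44 to 3.15 reads of miR-182-5p per read of miR-183-5p, with 2.78 ± 0.348 in control and 2.90 ± 0.361 in HTG (SD, n = 3 each). In log2 the difference was 0.06 (exact two-sided permutation p = 0.7, adjusted 0.9). Of the 3 ratios between guides this was the steadiest, spanning 0.37 log2 units over the 6 libraries. The log2 ratio of miR-96-5p to miR-183-5p was -1.79, -2.11 and -2.47 in controls 1, 2 and 3 and -1.88, -1.77 and -1.94 in HTG, a difference of 0.26 (exact permutation p = 0.3, adjusted 0.875). It was 0.085 without control 3, 0.43 without control 1 and 0.44 without both libraries numbered 1. Control 3, where miR-96-5p was low beside a high miR-183-5p, held the lowest of these values. Against miR-182-5p the log2 ratio of miR-96-5p differed by 0.20 (exact permutation p = 0.4, adjusted 0.875), and by 0.027 without control 3, 0.11 without HTG 1 and up to 0.31 with another library left out. Summed over the arms, the controls held 7018, 7491 and 8139 CPM and the HTG libraries 4982, 7975 and 10072 CPM. The mean of this sum on the log2 scale differed by -0.03 (exact permutation p = 0.9, adjusted 0.9), while the plain mean was higher in HTG, at 7676 ± 2558 against 7549 ± 563 CPM (SD, n = 3 each).

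For each guide the libraries of a group differed more among themselves than the group means did. With TMM scaling, HTG 1 had the lowest level of 4 of the 6 arms, including all 3 guides, and HTG 3 the highest of all 3 guides. As a share of all counts, without the TMM factors (1.189 in HTG 1, 0.9048 in HTG 3), only miR-182-5p of the guides kept both places. By share, miR-183-5p was lowest in control 1 (0.155%, HTG 1 0.157%) and highest in control 3 (0.227%, HTG 3 0.206%). The share of miR-96-5p was lowest in control 3 (0.0409%, HTG 1 0.0427%). In HTG 1 the log2 level minus its mean over the 6 libraries was -0.46 for miR-183-5p, -0.35 for miR-96-5p and -0.65 for miR-182-5p. The same library had the highest summed level of the 10 leukocyte markers, 7079 CPM against 1521 and 1916 in HTG 2 and 3, and none of these markers was at 0 in any library. In controls 1, 2 and 3 that sum was 3950, 5276 and 3233 CPM. Members of the leukocyte list went different ways. In HTG 1 miR-150-5p was the highest of all libraries (1726 CPM), while miR-223-3p (993 CPM) was below controls 2 and 3 (3510 and 1695 CPM). HTG 1 had the lowest sum of the 11 epithelial and duct markers too (31959 CPM, against 38942 to 42811 in control and 49151 and 47568 in HTG 2 and 3), and the lowest of the acinar markers (327252 CPM). The islet and neuroendocrine sum was lowest in control 2 (36725 CPM), with HTG 1 next (38600 CPM). Control 3 had nearly as low an acinar sum as HTG 1 (328488 CPM). There miR-182-5p (5690 CPM) and miR-183-5p (2053 CPM) were the highest of the controls, and miR-96-5p (369 CPM) was the lowest. The part of cell makeup in the cluster's level was not tested, and in bulk tissue fewer cells of a type and less of an RNA per cell cannot be told apart.

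**Figure D5:**
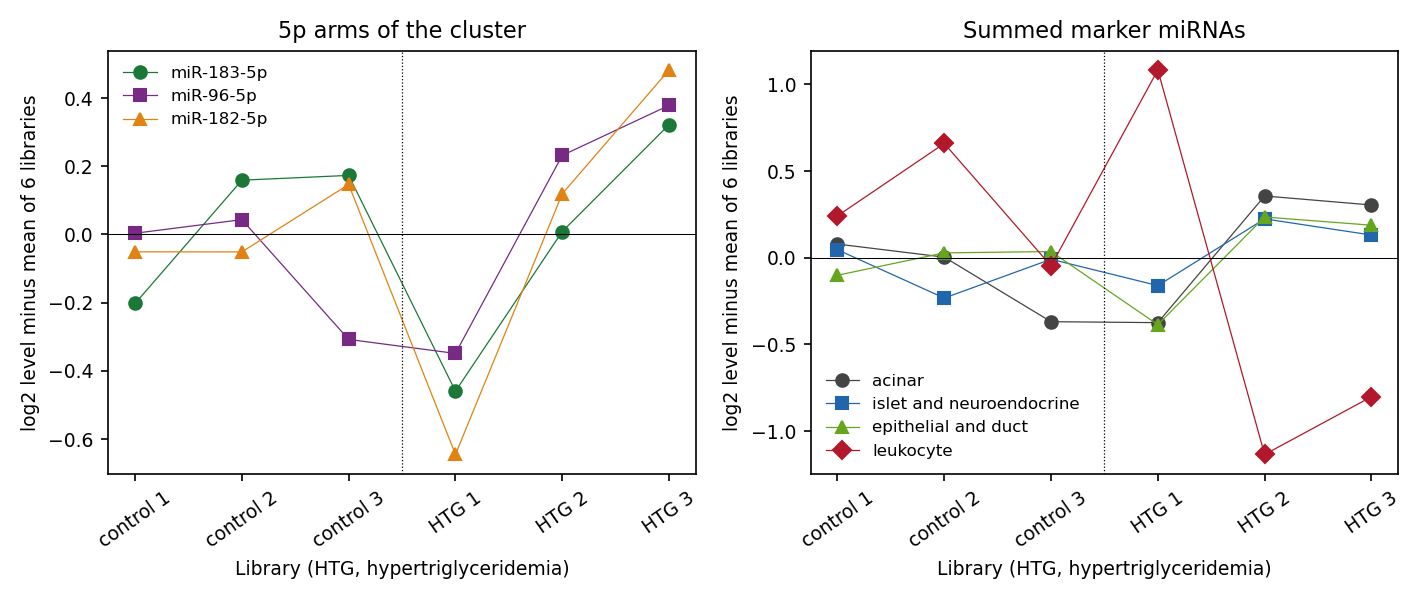
Left, log2 level of the 3 guides minus their own mean over the 6 libraries; right, the same for the summed CPM of 4 lists of marker miRNAs (lines only join the points of 1 series, and libraries have no order). In TMM-scaled CPM all 3 guides are lowest in HTG 1. There the leukocyte sum is highest (1.08) and the epithelial and acinar sums are lowest (-0.39 and -0.37). The islet and neuroendocrine sum is lowest in control 2 (-0.23) and stands at -0.16 in HTG 1. The acinar sum is also -0.37 in control 3. Of the controls, that library is the highest in miR-182-5p (0.15) and miR-183-5p (0.17) and the lowest in miR-96-5p (-0.31).

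Over the 6 libraries, likeness to each guide was measured as the root-mean-square difference of mean-centred log2 levels among 299 miRNAs with a mean of at least 10 CPM. To miR-182-5p the nearest were let-7a-1-3p and let-7c-2-3p, which have equal counts (0.11 log2 units each), miR-216a-3p of an acinar hairpin (0.11), let-7i-5p (0.12) and miR-190a-5p (0.12). Its partner miR-183-5p was 12th of 298 at 0.15, and miR-96-5p was 42nd at 0.23. Nearest to miR-183-5p were let-7f-5p (0.08), the epithelial miR-203-3p (0.08), let-7i-5p (0.09), miR-199b-5p (0.10) and miR-664-5p (0.12), with miR-182-5p 16th. For miR-96-5p the order was miR-582-3p (0.07), the acinar miR-148a-3p (0.09), let-7f-2-3p (0.10) and the pair miR-101c and miR-101a-3p (0.11 each), whose counts are almost the same, while miR-182-5p was 53rd and miR-183-5p 55th. The median distance of a miRNA from these guides was 0.34 to 0.42. Each guide had miRNAs of other loci nearer to it than its cluster partners were. This sets the nearest of 298 miRNAs over 6 libraries against the partners alone, so it cannot show whether the guides vary together. The SD over the 6 libraries was 0.29 for miR-183-5p and miR-96-5p and 0.37 for miR-182-5p, where the median miRNA had 0.27.

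Beside the cluster, the other miRNAs of endocrine and neuronal cells had mostly positive fitted changes. Of 14 on the list 13 were tested, 10 above 0 and 3 below, with a median log2 fold change of 0.39, against -0.01 over all tested miRNAs. Over all 488 tested miRNAs, 239 were above 0 and 249 below. In edgeR 0 of the list passed, and 4 of the 13 were at an unadjusted p under 0.05, where the share over all tested miRNAs was 2.46%. These 4 were miR-7a-5p, miR-7b-5p, miR-129-1-3p and, lower, miR-9-3p, the last 3 named after their values were seen. Like the other marker lists, this list was chosen with earlier results of these data known. It also holds related rows of miR-7, miR-129 and miR-9, so its counts and median are no test of a trend. For the islet miRNA miR-375-3p the controls averaged 37346 ± 3343 CPM and the HTG libraries 38762 ± 5792 CPM (SD, n = 3 each; log2 0.05 ± 0.16, SE). The endocrine miR-7a-5p had 4374, 2348 and 2191 CPM in the controls and 4858, 5589 and 5285 CPM in HTG (log2 0.82 ± 0.27, SE; adjusted p = 0.996, edgeR). These groups did not overlap, which held for 7.99% of all tested miRNAs. All 7 tested acinar markers were above 0 (median 0.20), the 10 tested epithelial and duct markers were split 5 to 5 (median 0.00), the 10 leukocyte markers 6 to 4 (median 0.06), and of the 4 erythroid markers 3 were above 0 (median 0.31); none of these passed in edgeR, and 0 were at an unadjusted p under 0.05. Their most abundant members were miR-148a-3p (log2 0.22 ± 0.23, SE), miR-200b-3p (-0.01 ± 0.19), miR-223-3p (-1.11 ± 0.52) and miR-451a (0.30 ± 0.41).

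Besides miR-182 and miR-96, other miRNAs are reported to repress FOXO1 in human cells, and 4 of them were followed. In edgeR 0 of the 4 passed and 0 were at an unadjusted p under 0.05, with 2 above 0, 2 below and a median log2 fold change of -0.18. For the most abundant, miR-27a-3p, the controls averaged 3479 ± 459 CPM and the HTG libraries 3508 ± 385 CPM (SD, n = 3 each; log2 0.01 ± 0.16, SE). The neutrophil and macrophage miRNA miR-223-3p held 663, 3510 and 1695 CPM in the controls and 993, 769 and 948 CPM in HTG. For miR-139-5p the log2 fold change was -0.37 ± 0.25 (SE), and for miR-370-3p, at 1.01 to 6.33 CPM, it was 0.52 ± 0.60.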

How the data were processed

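RNA of mouse pancreas was isolated with Trizol, and the NEXTflex Small RNA-Seq Kit v3 was used for the libraries, per the labels' protocols. The submitters' processing notes name Bowtie 1.1.1, a short-read aligner, and the genome GRCm38. How reads were trimmed, annotated and assigned where they matched more than 1 miRNA is not given in the sources used here. In their table the authors deposited whole-number read counts per mature miRNA and, beside them, TPM values, which are the counts divided by a total per library, without regard to length.

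Counts were analysed with edgeR 4.0.16 in R 4.3.3: filterByExpr (minimum count 10, minimum total 15), TMM factors, and a two-sided quasi-likelihood test over all 488 tested miRNAs with Benjamini-Hochberg adjustment at 0.05. SE is the absolute log2 fold change divided by the root of the F statistic. Levels were checked against exact Poisson intervals. Summed levels and ratios were compared by exact permutation of the libraries. The test was tried on simulated data first. DESeq2 1.42.0, limma 3.58.1 (voom, and log2 of TPM with a pseudocount of 1 or 0.1), other scalings, no filter, a replicate block and left-out libraries were alternatives. The libraries numbered 1 deviated together over all tested miRNAs (correlation of 0.479), a relation seen in the data and not stated in the labels. The correlations were 0.192 for number 2 and 0.281 for number 3. Control 2 was closer to HTG 3 (0.235) than to HTG 2, and control 3 with HTG 2 gave 0.247, so only number 1 stood apart from the other numbers. Each group was centred on its own mean, so the values of numbers 2 and 3 are not independent of that of number 1.

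The members and marker lists were chosen with earlier results of these data known. Named miRNAs are the members, the 5 nearest to each guide, the most abundant of each marker list with miR-150-5p, miR-375-3p and miR-7a-5p, and the followed FOXO1 repressors. Sequences are from RefSeq, GRCm38.p6.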

Additional observations from a re-analysis of the deposited data

How the results depend on the processing

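No cluster arm was called in any of the 15 alternative settings (smallest adjusted p = 0.229, for miR-182-3p without both libraries numbered 1). The signs of miR-96-5p, miR-96-3p and miR-182-3p were the same in all 15 settings, with ranges of 0.05 to 0.52, 0.04 to 0.39 and -1.62 to -0.79. For miR-182-5p the log2 fold change turned from 0.04 to -0.059 with library size alone, -0.027 with limma-voom, -0.079 with limma on TPM at both pseudocounts and -0.028 with the replicate block. Leaving out 1 library at a time gave -0.23 to 0.33 for miR-182-5p, -0.26 to 0.16 for miR-183-5p and -0.48 to 0.052 for miR-183-3p. Without both libraries numbered 1, miR-183-5p was at 0.10, the summed level at 0.20 in place of -0.03 and the log2 5p to 3p ratio of miR-96 at 0.17 in place of -0.05. With 1 library left out, the summed level ranged from -0.26 to 0.25, that 5p to 3p ratio from -0.24 to 0.061 and the log2 ratio of miR-182-5p to miR-183-5p from -0.034 to 0.16. The cause of these turns was not tested.

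Over all miRNAs, the 0 calls became 1 without a filter on low counts (miR-135b-5p), 4 without both libraries numbered 1 (miR-129-5p, miR-335-3p, miR-7a-5p and miR-7b-5p) and 0 to 2 with 1 library left out, the 2 being miR-129-5p and miR-7b-5p without control 1; these were named after their values were seen. The replicate block changed no call: it gave 0 calls, with 27 miRNAs at an unadjusted p under 0.05 in place of 12, and the log2 fold changes of the guides were then -0.09 (miR-183-5p), 0.17 (miR-96-5p) and -0.028 (miR-182-5p). For the 3p arms, 8 to 404 reads per library limit the precision.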
